A study of Macaca fascicularis with 10 samples.

Results

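CHAT and SLC5A7 are the genes of the cholinergic neuron studied here, 2 of 7229 genes for which reads were counted separately for the allele from the mother and the allele from the father. Both were taken from the deposited table by symbol. The RNA was from the dorsal raphe nucleus of 10 females of the cynomolgus macaque, Macaca fascicularis, whose mothers and fathers are named in the labels. All daughters belong to 1 group. The labels name no treatment, genotype or age. Daughters are numbered 1 to 10 in label order. The comparison is between the 2 alleles inside 1 animal, and between the 2 genes in how far that balance varied from animal to animal.

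CHAT encodes choline acetyltransferase, which makes acetylcholine from choline and acetyl coenzyme A. SLC5A7 encodes the high-affinity choline transporter, which carries choline back into the nerve terminal and limits the rate of acetylcholine synthesis. Neurons that release acetylcholine need both proteins, with the vesicular transporter SLC18A3 that loads the transmitter. The raphe itself is known for serotonin neurons, and the cholinergic neurons of the surrounding brainstem lie in the laterodorsal tegmental nucleus and in the oculomotor and trochlear motor nuclei. CHAT (gene ID 102146741) is on chromosome 9 and SLC5A7 (gene ID 102144560) on chromosome 13, so the 2 genes are not linked. The chromosomes come from RefSeq's gene table of another assembly, T2T-MFA8v1.1, and no coordinate of it is given.

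The 2 genes were measured in partly different daughters. CHAT had allelic reads in 8 daughters and 10 or more in 6 of them (daughters 2, 4, 5, 6, 7 and 9). SLC5A7 had allelic reads in 7 daughters and 10 or more in 6 (daughters 1, 4, 5, 6, 7 and 8). Daughters 4, 5, 6 and 7 had 10 or more for both. Over the daughters used, the reads came to 848 for CHAT and 922 for SLC5A7. All libraries together held from 30090 allelic reads in daughter 1 to 999471 in daughter 6. A missing value can mean that the parents' sequences did not differ within the gene, so it says nothing about expression.

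CHAT had a mean near equal use of both alleles and leaned to the maternal allele in daughter 6. Daughter 2 had 130 maternal and 127 paternal reads, daughter 4 had 138 and 106, daughter 5 had 17 and 24, daughter 6 had 82 and 43, daughter 7 had 76 and 86, and daughter 9 had 7 and 12. The paternal share, meaning paternal reads as a percent of both columns, was thus 49.4%, 43.4%, 58.5%, 34.4%, 53.1% and 63.2% in that order. The mean was 50.3% ± 10.4 (SD, n = 6). Daughter 6 was the lowest, with a 95% Wilson interval of 26.6 to 43.1, and daughter 9 the highest, with an interval of 41.0 to 80.9 on 19 reads. Daughters 1 and 8, with 3 and 6 reads, were left out of the mean.

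SLC5A7 ranged much more widely, through 2 daughters. Daughter 1 had 10 maternal and 6 paternal reads, daughter 4 had 168 and 148, daughter 5 had 65 and 184, daughter 6 had 87 and 83, daughter 7 had 100 and 1, and daughter 8 had 31 and 39. The paternal share was 37.5%, 46.8%, 73.9%, 48.8%, 0.990% and 55.7% in that order, with a mean of 44.0% ± 24.3 (SD, n = 6). In daughter 7 nearly every read was maternal (Wilson interval of the paternal share 0.175 to 5.40). In daughter 5 most reads were paternal (68.1 to 79.0). The intervals of daughters 1, 4, 6 and 8 all include equal shares. The intervals hold counting error alone, as several reads can come from 1 molecule.

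**Figure D1:**
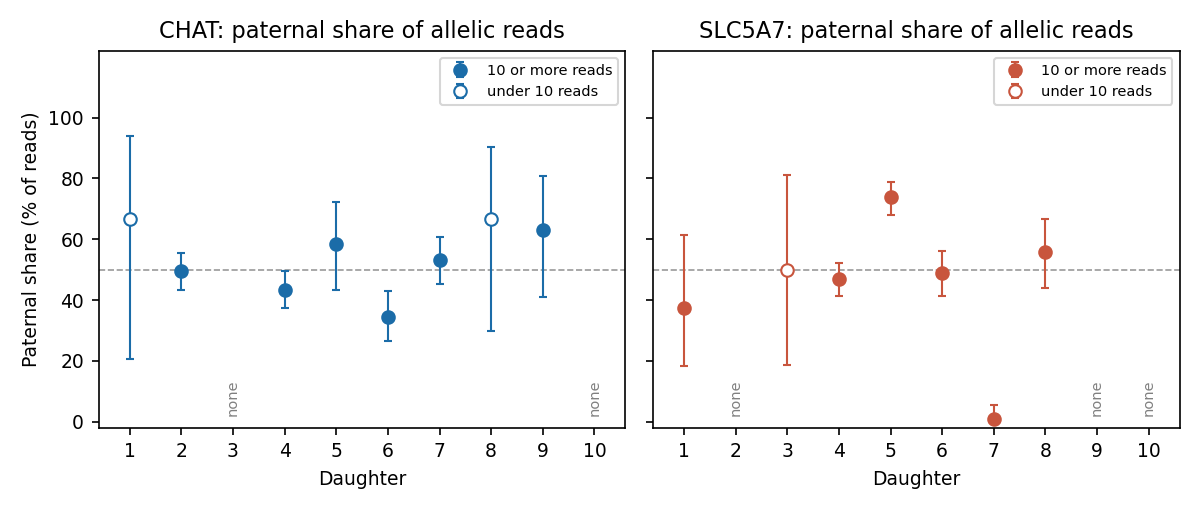
Paternal share of allelic reads (percent) of CHAT (left) and SLC5A7 (right) in each daughter. Points are single daughters, bars are 95% Wilson intervals, open points have under 10 reads and "none" marks a daughter without a value. CHAT stays between 34.4% and 63.2% in the daughters with 10 or more reads, while SLC5A7 falls to 0.990% in daughter 7 and reaches 73.9% in daughter 5.

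Each daughter was then tested alone for unequal alleles. An exact binomial test was run on every gene of every daughter with 10 or more reads, with Benjamini-Hochberg adjustment over all 27887 such measurements. Of these, 8.57% passed an adjusted p of 0.05, which is the background over all genes, X-linked ones included. CHAT and SLC5A7 are autosomal, and 7.60% of autosomal measurements passed. CHAT passed in 1 of 6 daughters, daughter 6, towards the maternal allele (exact binomial adjusted p = 0.0102). In daughter 4, also lower on the paternal side, it did not (adjusted p = 0.272, exact binomial). SLC5A7 passed in 2 of 6, on opposite sides, maternal in daughter 7 (adjusted p = 2.20e-26, exact binomial) and paternal in daughter 5 (adjusted p = 1.80e-12, exact binomial). Within those libraries the background, again over all genes, was 10.2% (daughter 6), 9.94% (daughter 5) and 7.33% (daughter 7). These backgrounds hold all measurements from 10 reads up and are not matched to the read numbers of the 2 genes. These tests weigh the reads of single libraries and have no replicate.

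SLC5A7 in daughter 7 belonged to a small class of measurements read almost wholly from 1 allele. Daughter 7 had 1656 genes with 20 or more reads, X-linked ones included. In 3.32% of these, 90% or more of the reads came from 1 allele. That was the highest share of the 10 libraries, against 1.6% of measurements with 20 or more reads over all daughters. SLC5A7 had 101 reads in daughter 7, and 425 genes of this library had 100 or more. In 1.88% of these 425, 90% or more of the reads came from 1 allele. Their median distance from equal shares was 4 percentage points, and SLC5A7 lay 49.0 points away. CHAT, in the same library and with 162 reads, lay 3.09 points away. Whether the positions behind these reads were called correctly could not be checked from counts.

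Total levels are given as a description. As CPM, the counts scaled to the allelic reads of the library, daughter 1 had 532, daughter 4 had 376, daughter 5 had 271, daughter 6 had 170, daughter 7 had 369 and daughter 8 had 201 of SLC5A7. The value of daughter 7 lies inside the range of the others. Split by allele in daughter 7, the level was 365 CPM for the maternal and 3.65 CPM for the paternal allele. In the other 5 daughters the maternal allele had from 70.9 to 332 CPM, the last on 10 reads in daughter 1. For CHAT, daughter 2 had 470 CPM, daughter 4 had 290, daughter 5 had 44.7, daughter 6 had 125, daughter 7 had 591 and daughter 9 had 45.5. These levels rise with the number of positions that tell the parents apart in an animal as well as with expression, so they rank neither daughters nor genes. In bulk tissue, fewer cholinergic neurons and less RNA per neuron cannot be told apart either.

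**Figure D2:**
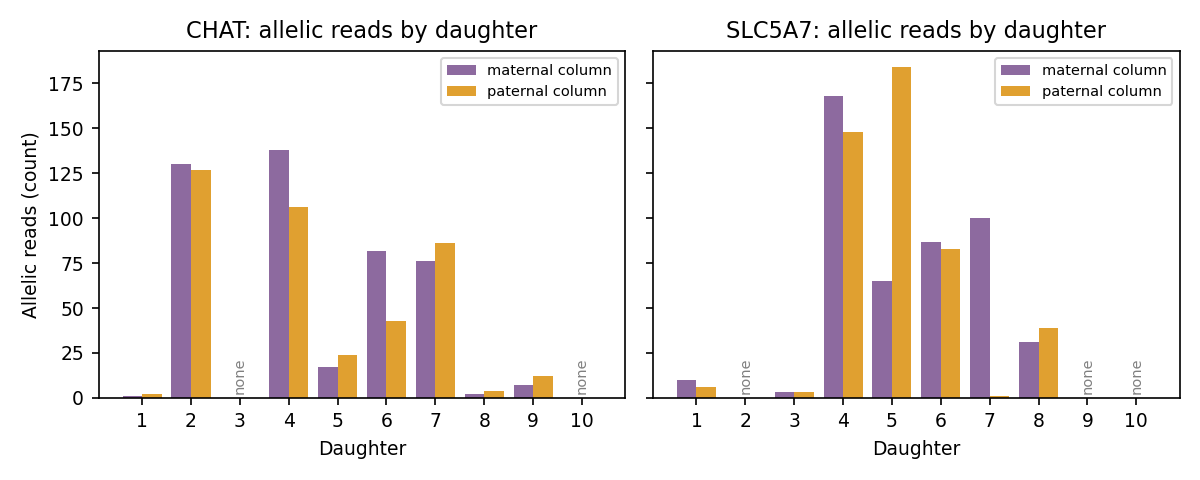
Allelic reads (counts) of CHAT (left) and SLC5A7 (right) in each daughter, with the maternal column in purple and the paternal column in orange. The bars of SLC5A7 are unequal in daughter 5 (65 and 184) and daughter 7 (100 and 1) and of similar height in daughters 4, 6 and 8.

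The 2 genes were compared directly in the 4 daughters that had both. In daughter 7 the paternal share of SLC5A7 was 52.1 percentage points below that of CHAT, with a 95% interval of 43.3 to 59.7 points (Fisher's exact test, two-sided, adjusted over 4 daughters, p = 7.69e-22). In daughter 6 it was 14.4 points above CHAT (3.01 to 25.2, Fisher's exact adjusted p = 0.0342), where CHAT leaned to the maternal allele and SLC5A7 had 48.8%. In daughter 5 it was 15.4 points above (0.480 to 31.4), which did not pass (Fisher's exact adjusted p = 0.0799). In daughter 4 the difference was 3.39 points (-4.90 to 11.6, Fisher's exact adjusted p = 0.442). The genes therefore differed beyond counting error in 2 of the 4 libraries, in opposite directions. These p-values describe a difference between 2 genes within 1 library and have no replicate.

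Over animals, the difference in distance from equal shares did not pass its test. Its distance from equal shares exceeded that of CHAT by 15.4 points in daughter 5 and 45.9 points in daughter 7. In daughters 4 and 6 it was smaller than that of CHAT, with differences of -3.39 and -14.4 points. The mean difference was 10.9 ± 26.4 points (SD, n = 4; exact permutation test by sign flips, two-sided, p = 0.625), where 0.125 is the smallest p that 4 daughters allow. Without daughter 7 it was -0.819 points. With daughters of 1 or more reads it was 4.72 ± 22.7 points (SD, n = 6; exact permutation p = 0.75, where 0.03125 is the smallest possible).

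The spread of each gene was also set beside that of all genes, as a description. Among the 635 genes measured in exactly 6 daughters, X-linked ones included, the median SD of the paternal share was 9.98 percentage points (quartiles 6.52 and 14.2). CHAT, at 10.4, was above 54.1% of them. SLC5A7, at 24.3, was above 97.6%, with 15 genes higher. Counting error alone would give SDs of 6.42 for CHAT and 6.45 for SLC5A7, so their read numbers gave both about the same precision. The ratio of observed to binomial variance, which is near 1 when only counting error is present, was 3.28 for CHAT and 31.4 for SLC5A7, against a median of 1.78. CHAT was above 75.7% of the 635 genes in this ratio and SLC5A7 above 98.9%. Without daughter 7 the SD of SLC5A7 was 13.6 and the ratio 12.2. Without daughter 5 the ratio was 20.5, with an SD of 21.7. Without both, a choice made after seeing the data, SLC5A7 had an SD of 7.51 and a ratio of 0.859 (n = 4), and CHAT had an SD of 12.1 and a ratio of 3.48 (n = 4). The excess of SLC5A7 over CHAT thus rests on daughters 5 and 7. For CHAT it was daughter 6 that moved the ratio most, to 1.78 without it.

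**Figure D3:**
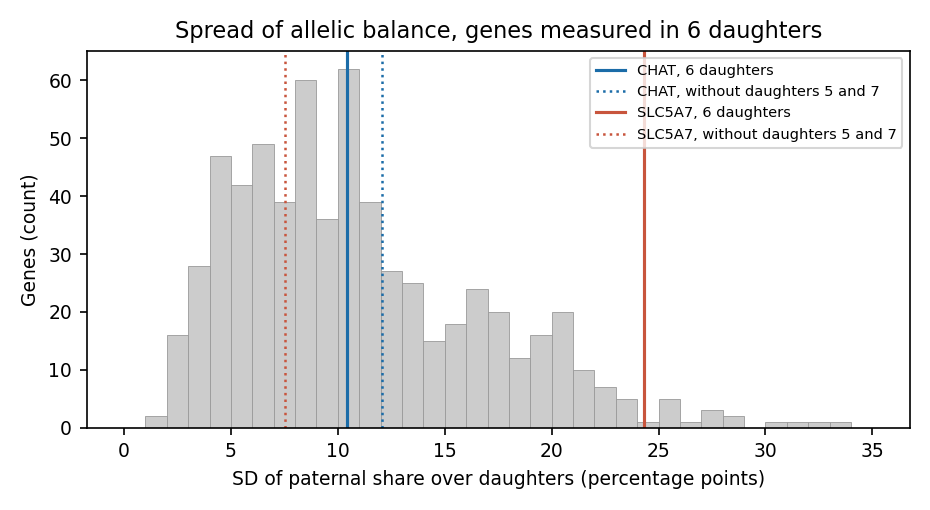
SD of the paternal share over daughters (percentage points) for the 635 genes measured in 6 daughters, X-linked ones included, as a histogram of gene counts. Solid lines mark CHAT (10.4) and SLC5A7 (24.3), and dotted lines the same genes without daughters 5 and 7 (12.1 and 7.51).

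No preference for the same parent across animals was detected for either gene. In the edgeR quasi-likelihood fit over 2981 genes, with the daughter as block, the log2 ratio of paternal to maternal reads was -0.015 ± 0.21 (SE) for CHAT and -0.30 ± 0.66 for SLC5A7, with an adjusted p of 1 for both. The fit called 0 genes (0%) at an adjusted p of 0.05, with 93 genes at an unadjusted p under 0.05. DESeq2 also called 0, with 62 at an unadjusted p under 0.05. As neither tool called any gene, these fits cannot show that CHAT or SLC5A7 lacks a parental preference. CHAT lay on the maternal side in 3 of 6 daughters and SLC5A7 in 4 of 6. Without daughter 7 the ratio of SLC5A7 turned to 0.26 ± 0.27.

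Sample titles carry 2 prefixes, and the labels do not say what these stand for. Values are given within each. Within prefix 10203 the paternal share was 46.4% ± 10.2 for CHAT and 51.8% ± 15.6 for SLC5A7 (SD, n = 4 each). Within prefix 10480 CHAT had 53.1% and 63.2% in its 2 daughters, and SLC5A7 had 0.990% and 55.7%. The difference between prefixes in the log2 ratio was 0.66 ± 0.42 (SE) for CHAT and -2.12 ± 1.32 for SLC5A7, with an edgeR adjusted p of 1 for both (1 of 2981 genes called, 0.0335%). With 2 daughters of prefix 10480 for each gene, this test has little to rest on.

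Daughters that share a father did not share the imbalance of SLC5A7. Daughters 6 and 10 share a labelled mother, but daughter 10 had no value for either gene. Daughters 1, 7 and 8 have the same labelled father, and their shares were 37.5%, 0.990% and 55.7%. The interval of daughter 7 overlaps neither that of daughter 1 (18.5 to 61.4) nor that of daughter 8 (44.1 to 66.8). Daughters 4 and 5, with another father in common, had 46.8% (41.4 to 52.3) and 73.9% for SLC5A7, intervals that do not overlap. For CHAT the same 2 daughters had 43.4% (37.4 to 49.7) and 58.5% (43.4 to 72.2), which overlap. Half-sisters can receive different alleles from a shared father, and those compared here have different labelled mothers. The labels do not say which alleles they received.

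The nearest genes with 10 or more reads on each chromosome were closer to balance than SLC5A7 and CHAT in the daughters where these were unequal. Those on chromosome 13 had few reads in these daughters, and several intervals on both chromosomes overlap that of the gene compared. This look at 5 neighbours on each side was added after the values were seen, and the order of genes is that of the other assembly. On chromosome 13, GCC2, a Golgi tethering protein, and CCDC138 were the only 2 neighbours of SLC5A7 with 10 or more reads in daughter 7. In daughter 7 GCC2 had 55.6% of 18 reads in the paternal column (33.7 to 75.4) and CCDC138 had 65.5% of 29 (47.3 to 80.1). In daughter 5 GCC2 had 32.4% of 37 reads (19.6 to 48.5) and CCDC138 45.7% of 46 (32.2 to 59.8). None of these 4 intervals overlaps that of SLC5A7 in the same daughter. In daughter 5 the intervals of TGFBRAP1, NCK2, LIMS1 and SH3RF3 do overlap it, on 34, 20, 15 and 10 reads. On chromosome 9, OGDHL, related to the oxoglutarate dehydrogenase enzyme, and PARG, which degrades poly(ADP-ribose), follow CHAT. In daughter 6, where CHAT had 34.4%, OGDHL had 50% of 344 reads (44.7 to 55.3) and PARG 49.1% of 275 (43.2 to 55.0), while the interval of FRMPD2, at 44.9% of 156 (37.3 to 52.7), overlaps that of CHAT. So do those of WDFY4 and ADIRF, on 12 and 22 reads. SLC18A3, which shares a locus with CHAT, was not analysed here, and the sources used here do not say whether any of its reads were counted to CHAT.

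**Figure D4:**
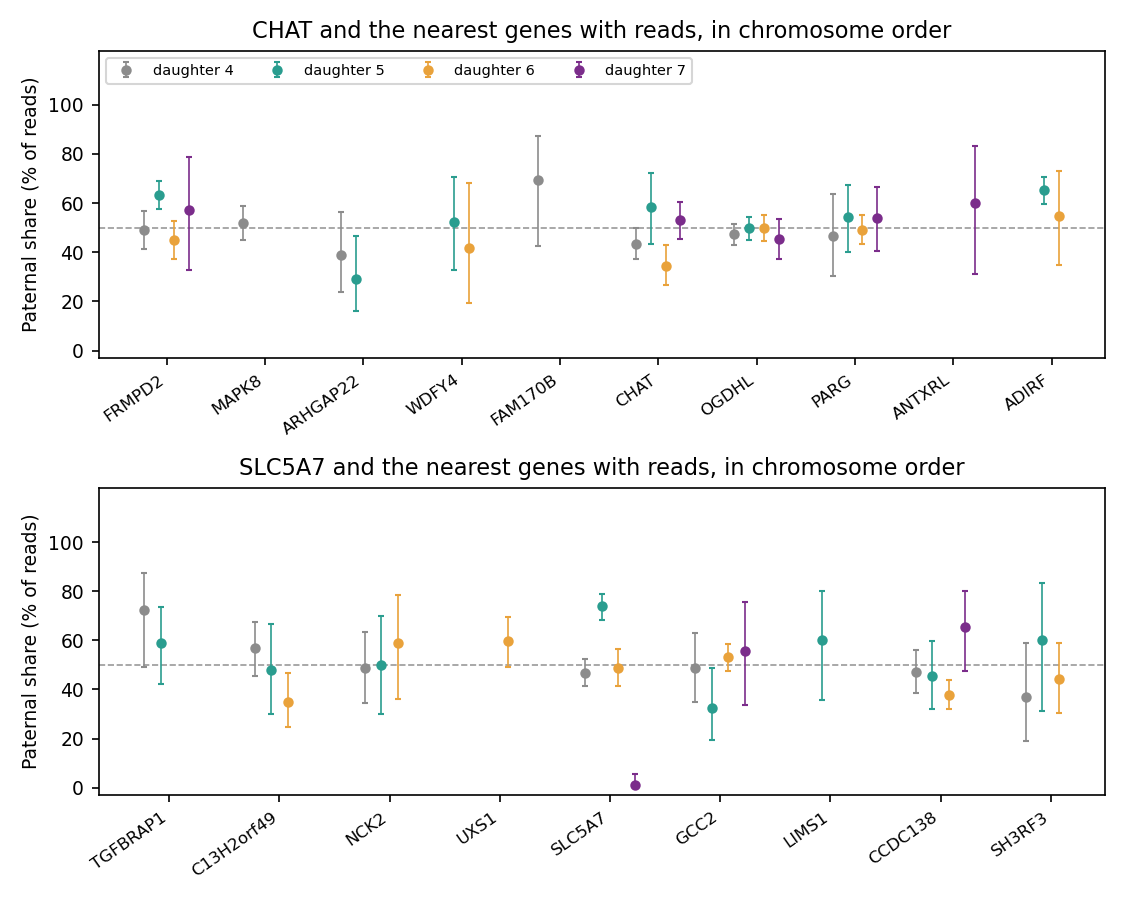
Paternal share (percent of reads) of CHAT (top) and SLC5A7 (bottom) with up to 5 of the nearest genes on each side that have 10 or more reads in daughters 4 to 7, in chromosome order and not to scale. Points are single daughters and bars 95% Wilson intervals. SLC5A7 in daughter 7 (0.990%) stands far below GCC2 (55.6%) and CCDC138 (65.5%) of the same daughter.

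Other genes of acetylcholine handling were read from 4 lists: synthesis and breakdown, muscarinic receptors, nicotinic receptors with their chaperones, and identity of cholinergic and motor neurons. Of 58 genes, 29 were in the table and 12 were tested, CHAT and SLC5A7 included. The edgeR fit called 0 of the 12 in either direction (0% of all genes), and their median log2 ratio of paternal to maternal reads was -0.021, against -0.0069 over all genes tested. In single daughters, 10 of 85 measurements of the genes other than CHAT and SLC5A7 passed the exact binomial test, or 11.8% against the 8.57% background. Of these 10, 6 were of X-linked genes, whose alleles were unequal in 34.4% of measurements over the whole table. Among autosomal list genes 4 of 73 measurements passed (5.48%), against 7.60% of all autosomal measurements.

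In the synthesis list, ACHE, the acetylcholine-degrading enzyme, had reads in daughters 5 (33.3% of 30), 6 (51.4% of 107) and 10 (44.4% of 27). ACLY, which supplies acetyl coenzyme A, had 48.1% ± 4.40 (SD, n = 8). SLC44A2, a choline transporter-like protein, had 49.9% ± 8.71 (SD, n = 5) and passed in daughter 5, at 41.8% of 395 reads (exact binomial adjusted p = 0.0185). PDHA1, an X-linked subunit of pyruvate dehydrogenase, spanned 19.5% (daughter 3) to 98.1% (daughter 10) around a mean of 52.8% ± 25.6 (SD, n = 6). Its variance ratio of 33.1 was of the size of that of SLC5A7, which is autosomal.

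Among nicotinic receptor subunits, CHRNA4 had 58.4% ± 17.7 (SD, n = 5) and CHRNA7 56.7% ± 15.9 (SD, n = 8). Each passed in 1 daughter, towards the paternal allele. For CHRNA4 it was daughter 2, with 7 maternal and 42 paternal reads (85.7%, 73.3 to 92.9). For CHRNA7 it was daughter 8, with 1 maternal and 13 paternal reads (92.9%, 68.5 to 98.7). RIC3, a chaperone of nicotinic receptors, had 46.4% ± 7.62 (SD, n = 8) and passed in none of its daughters. TMEM35, the X-linked receptor chaperone also named TMEM35A, had 42.1% ± 26.5 (SD, n = 5) and passed in 4 of 5, with 87.4% in daughter 4 and 21.7% to 29.6% in daughters 3, 5 and 10. CHRM1 was the only muscarinic receptor in the table, with at most 4 reads in a daughter.

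Tested genes that mark cholinergic and motor neurons had means from 48.9% to 59.4%. NOS1, the neuronal nitric oxide synthase that cholinergic neurons of the laterodorsal tegmentum also make, had 48.9% ± 3.75 (SD, n = 8), the lowest SD of the 12 genes, and a variance ratio of 0.603. The neurotrophic factor receptors RET and GFRA1 had 53.6% ± 8.40 (SD, n = 8) and 59.4% ± 4.31 (SD, n = 5). GFRA1 lay between 55% and 65% in all 5 daughters and passed in none. UTS2, the urotensin peptide of motor neurons, named after its values were seen, passed in daughter 2 with 59.7% of 590 reads (exact binomial adjusted p = 9.12e-05). The serotonin marker TPH2 had from 44.7 to 5412 CPM in 7 daughters and a share of 49.5% ± 3.55 (SD, n = 7). It had no value in daughters 1, 2 and 7, and its lowest level was in daughter 5. There the serotonin genes SLC6A4, DDC and SLC18A2 had 20.7, 7.63 and 4.36 CPM. Daughter 5 is also a daughter in which SLC5A7 was unequal. In daughter 7, the other such daughter, the missing TPH2 value says nothing about expression, and SLC18A2 had 40.1 CPM on 11 reads. Daughter 1 had no TPH2 value either, and its SLC5A7 interval included equal shares. Whether the low levels in daughter 5 have a part in the result was not tested. These levels too move with the number of informative positions. The lists for astrocytes, oligodendrocytes and microglia were not analysed here.

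**Figure D5:**
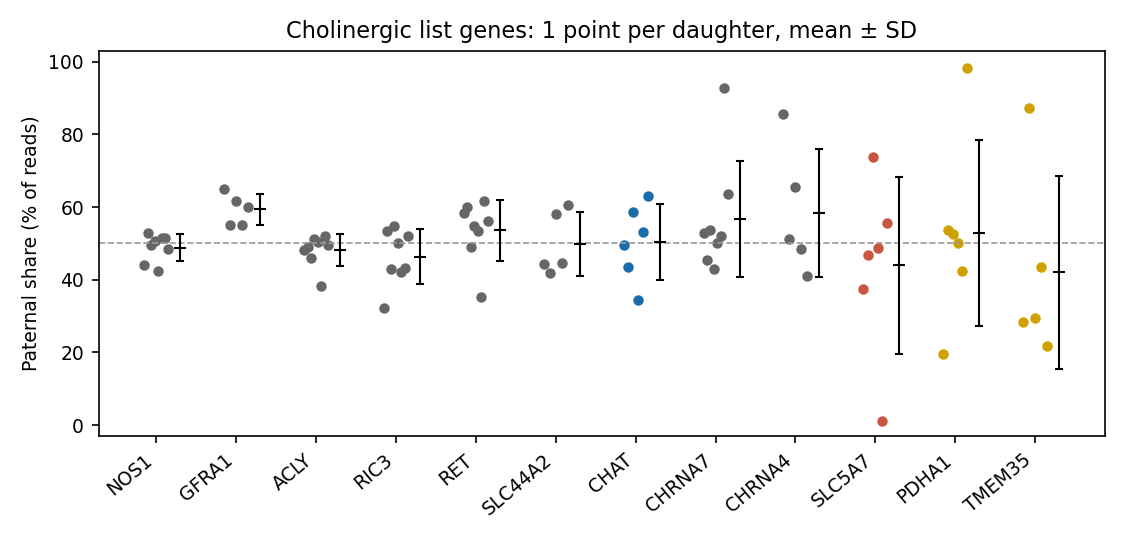
Paternal share (percent of reads) of the 12 cholinergic list genes that were tested, ordered by SD. Points are single daughters, black marks give the mean ± SD, CHAT is blue, SLC5A7 red and X-linked genes yellow. SLC5A7 has a higher SD (24.3) than the other autosomal genes of the plot, and the X-linked PDHA1 (25.6) and TMEM35 (26.5) lie above it.

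Lastly, genes were sought whose shares lay nearest to those of each gene, daughter by daughter. For CHAT the mean absolute difference over its 6 daughters was smallest for RFX4 (3.72 percentage points), WWP2 (4.26) and COPG1 (4.53), among 529 genes with a median of 9.78. RFX4, a transcription factor of the brain, had 31.3% in daughter 6 and 63.4% in daughter 9, the daughters at the ends of the range of CHAT. As RFX4 was picked for its nearness in these same daughters, this follows from the choice. For SLC5A7 the smallest differences were larger, 9.32 for WDFY3, 11.9 for NDUFA10 and 11.9 for AATK, among 111 genes with a median of 17.1. WDFY3, an autophagy protein, had 0% in daughter 7 and 48.7% in daughter 5, so it was near SLC5A7 in daughter 7 only among the 2 unequal daughters. These genes lie on other chromosomes than CHAT and SLC5A7.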

How the data were processed

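Per the labels' protocols, ribosomal RNA was removed and stranded libraries of total RNA were read from both ends for 101 cycles. The submitters' processing notes name Novoalign. The build was macFas5, per the file headers. The phasing and filtering of reads are not given in the sources used here. The unit of the table that the authors deposited is whole-number counts per gene and parental allele, and its name says that redundant gene rows were summed. Each of the 20 columns was matched to a sample by title.

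Replicates are separate animals. Tests across genes kept those reaching 10 reads over both alleles in at least 5 daughters and used edgeR 4.0.16 in R 4.3.3 (glmQLFit, robust, then glmQLFTest). The animal was the block, and library sizes were sums of both columns. DESeq2 1.42.0 was the other tool. Benjamini-Hochberg adjustment ran over all genes or measurements tested, at 0.05. The fits and the binomial test were tested on simulated data first. Shares in single daughters carry 95% Wilson intervals, and differences of shares intervals built from them. Single daughters were tested with the exact binomial test, pairs of genes with Fisher's exact test, and the difference in distance from equal shares with exact sign flips. The variance ratio is Pearson's chi-square around the pooled share, divided by its degrees of freedom. Python 3.11.15, SciPy 1.17.1, NumPy 2.4.6, pandas 2.3.3 and matplotlib 3.10.9 were used.

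The 2 genes and the lists were chosen with earlier results of these data known. Named genes were CHAT and SLC5A7 in every daughter, list members that passed the filter, list members that check the tissue, and the 3 genes nearest to each in paternal share among those with 20 or more reads in the same daughters. Alternatives were another normalisation, other read minimums, DESeq2, no block, pooled reads and leaving out each daughter.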

Additional observations from a re-analysis of the deposited data

Results flagged for a closer look

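In 2 of the 13 gene and list groups of 4 to 10 daughters, 1 daughter lay far from the others in paternal share. Chance gives about 1 in 20 when all values are equally precise. The shares here rest on unequal numbers of reads, so that rate need not hold. For ACLY it was daughter 7, with 38.2% of 131 reads against 46.0% to 51.9% in the other 7 daughters, and the exact binomial test did not pass there (adjusted p = 0.0843). For CHRNA7 it was daughter 8, with 92.9% of 14 reads against 42.9% to 63.6% in the other 7. Neither CHAT nor SLC5A7 met this rule.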

How the results depend on the processing

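The means of CHAT and SLC5A7 moved by less than 1 SD under all alternatives, and the daughters called were the same in number when the reference share was that of the whole library. Genes called between the parental columns numbered 2 with no filter on low counts and 0 to 1 when each daughter was left out. The prefix difference called 0 genes with DESeq2, against 1 with edgeR, with 72 and 106 at an unadjusted p under 0.05. The log2 ratio of CHAT turned to 0.011 with no replicate block and ranged from -0.090 to 0.17 over left-out daughters, turning positive without daughter 4 or 6. That of SLC5A7 ranged from -0.73 to 0.26. The block is the animal itself, since both columns come from 1 library, and removing it changed no call. Leaving out each daughter gave variance ratios of 1.78 to 3.88 for CHAT and 12.2 to 39.3 for SLC5A7, and an SD of 13.6 to 27.1 for SLC5A7. Without daughters 5 and 7 these were 0.859 and 7.51 for SLC5A7. The mean difference in distance from equal shares ranged from -0.819 to 19.3 points over left-out daughters, was 4.72 with a minimum of 1 read (n = 6, exact permutation p = 0.75), and the difference of the signed shares was -4.73. With a minimum of 10 reads, 1 of the 3 genes nearest to CHAT stayed among the nearest 3. Depth limits daughters 1 and 9, with 16 reads of SLC5A7 and 19 of CHAT. The causes were not tested.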

Other observations

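In daughter 7, some other genes with 100 or more reads lay farther from equal shares than SLC5A7, and those given here were named after their values were seen. TMSB10, an actin-binding protein gene on chromosome 13, had 0 maternal and 612 paternal reads. C1QBP, a mitochondrial protein gene, had 0 and 187. TMSB10 lies on the chromosome of SLC5A7 and on the opposite parental side.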
